A study of Mus musculus with 8 samples.

Results

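The genes described are 10 of the 24942 listed in the deposited table, taken by their symbols: the NRF2 target enzymes Nqo1, Hmox1, Srxn1 and Txnrd1, the glutathione genes Slc7a11, Gclc, Gclm and Gpx4, and the metallothioneins Mt1 and Mt2. All 10 were found and all 10 passed the filter on low values. They were measured by RNA sequencing of retinal ganglion cells, the output neurons of the retina, taken at postnatal day 8 and held on antibody-coated plates, with RNA drawn directly from the plate and no time in culture. There were 4 libraries of mice lacking NPC1, the lysosomal cholesterol exporter, and 4 of wildtype littermates, grouped by titles and descriptions. A further field, named for the strain balb/cnctr-npc1m1n/j, goes against this grouping: it gives wildtype for every library numbered 1 or 2 and homozygous for every one numbered 3 or 4, in both groups. The labels name no driver that limits the loss of NPC1 to ganglion cells. The labels name neither the number of animals behind a library nor whether libraries came from separate animals, so the p-values measure the spread between these libraries only. Libraries are called wildtype 1 to 4 and NPC1-deficient 1 to 4 after their titles.

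NRF2 is a transcription factor that the adaptor KEAP1 delivers for breakdown. Oxidants and electrophiles modify KEAP1, NRF2 then builds up, and it switches on genes through antioxidant response elements. Its targets make reducing power: quinone and heme enzymes, the thioredoxin and sulfiredoxin systems, and the synthesis of glutathione, which neurons depend on and which glutathione peroxidases spend to remove peroxides. Metallothioneins are small cysteine-rich proteins that bind zinc and copper. Mt1 and Mt2 are induced by metals through the factor MTF1, and also by glucocorticoids and oxidative stress, while Mt3 is a form made in neural tissue.

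Mt1 and Mt2 lie side by side on chromosome 8 with 5513 bases between them, and they are the members with the largest positive differences, so the bases before their starts are shown. Each run is the 250 bases before the RefSeq start in GRCm38.p6, plus strand, for Mt1 at chr8:94178839-94179088 and for Mt2 at chr8:94172368-94172617. Capitals mark matches, on either strand, to the metal response cores TGCACNC and TGCGCNC or to the antioxidant response core TGACNNNGC, none of which overlapped another.
Mt1: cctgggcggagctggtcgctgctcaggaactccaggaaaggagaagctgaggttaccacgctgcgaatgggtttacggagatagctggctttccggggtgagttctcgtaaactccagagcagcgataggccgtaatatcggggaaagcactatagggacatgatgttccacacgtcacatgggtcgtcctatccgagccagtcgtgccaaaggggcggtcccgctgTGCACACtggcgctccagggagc
Mt2: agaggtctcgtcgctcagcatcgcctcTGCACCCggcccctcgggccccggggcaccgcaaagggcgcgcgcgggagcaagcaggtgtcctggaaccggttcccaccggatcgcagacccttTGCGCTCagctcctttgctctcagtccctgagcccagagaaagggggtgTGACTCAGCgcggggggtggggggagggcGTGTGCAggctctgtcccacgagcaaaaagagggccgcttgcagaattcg

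The Mt1 window held 1 metal response core and no antioxidant core, and the Mt2 window held 3 metal response cores and 1 antioxidant core. Bases after the end of each window were not searched, so these counts do not compare the promoters of the genes as a whole. Either metal response core was found in 21.4% of all 32817 RefSeq windows of the same length, and the antioxidant core in 10.2%. RefSeq windows were listed for 8 of the 10 genes, all but Hmox1 and Gclc. An antioxidant core was present before at least 1 start of 3 of these 8 genes, Gclm, Txnrd1 and Mt2, and a metal response core before 4, Gclm, Srxn1, Mt1 and Mt2. These 8 genes had 13 windows in all, so counts by gene are not on the same footing as the shares by window. The matches describe letters in these windows and were not tied to binding of any factor.

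The levels of the 10 genes spanned a wide range. Per kilobase of exon, the mean over the 8 libraries was 8157 normalized reads for Gpx4, 1134 for Srxn1, 496 for Txnrd1, 289.9 for Gclc, 229.8 for Nqo1 and 223 for Gclm. Mt2 followed at 153, Mt1 at 151, Hmox1 at 83.4 and Slc7a11 at 9.34, against a median of 113 over the 15235 tested genes with a known exon length. Gpx4, the peroxidase that reduces lipid peroxides within membranes, thus stood at the 98.5th percentile and the cystine importer Slc7a11 at the 12.7th. In this order the library values of Gpx4, Srxn1, Txnrd1, Hmox1 and Slc7a11 overlapped those of no other member. Nqo1, at 193 to 310, overlapped Gclc (269.8 to 314), Gclm (208 to 235), Mt1 (125 to 236) and Mt2 (129.9 to 201), whereas Gclc and Gclm did not overlap each other. Mt1 and Mt2 overlapped over most of their range. Exon length is the union over GENCODE M21 transcripts, which lowers the value of genes with long rare exons such as Slc7a11, whose exons add up to 13922 bases. For Mt1 the union is 1246 bases, the whole span of the gene, against 588 for Mt2. Before division by length, Mt1 had 1.45 to 2.49 times the reads of Mt2 in each library. Mt3, the neural metallothionein and no member, had 2745 normalized reads per kilobase. That was 18.2 times the level of Mt1 and 17.96 times that of Mt2 per kilobase, multiples that rest on these lengths. The level of Mt2 also rests on how reads were counted in the 73.5% of its exon bases that a gene on the opposite strand shares.

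**Figure D1:**
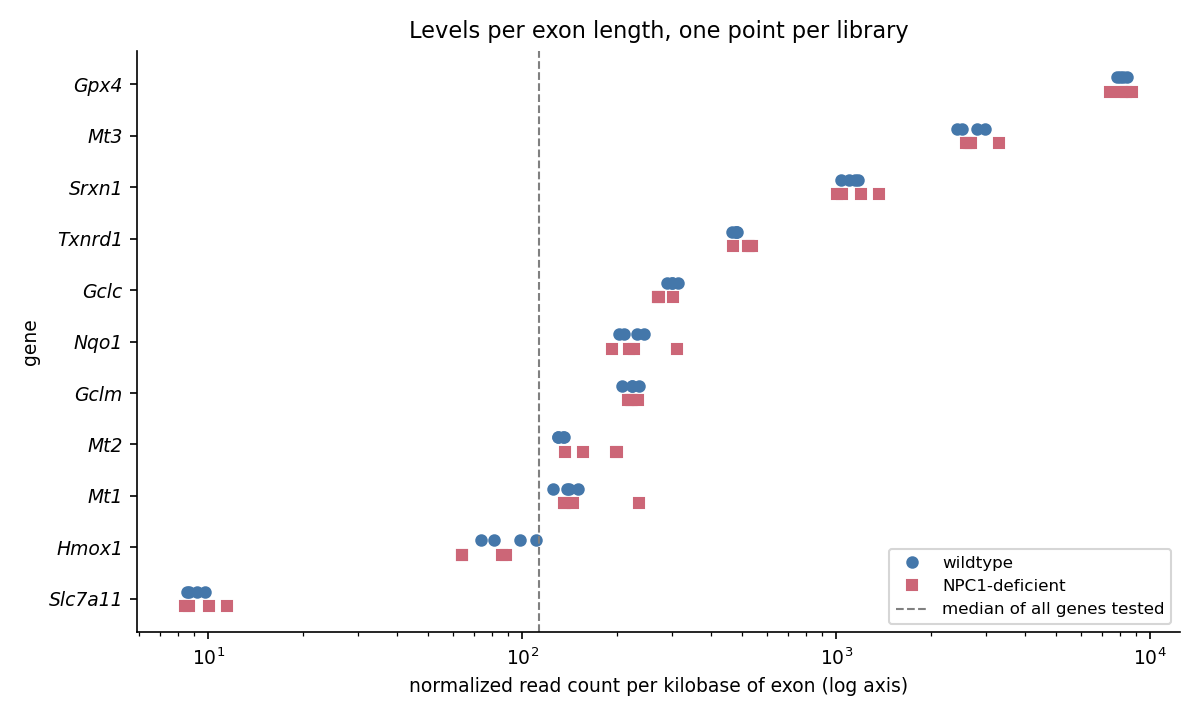
Normalized read counts per kilobase of exon on a log axis, with 1 point per library for the 10 genes and Mt3 (circles, 4 wildtype; squares, 4 NPC1-deficient libraries). Gpx4 is highest at a mean of 8157 and Slc7a11 lowest at 9.34, and the dashed line is the median of 113 over the tested genes.

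None of the 10 genes differed between NPC1-deficient and wildtype libraries by the test over all genes (limma on log2(normalized count + 1), adjusted p from 0.623 to 0.995). In that test 16 of 15386 genes passed an adjusted p of 0.05, or 0.104%. At an unadjusted 0.05 the test named 1 member, Mt2, against 6.76% of all genes tested, and on recovered reads neither edgeR nor DESeq2 called any member (0 and 0). Of the 10 fold changes 8 were positive and 2 negative, and their median was 0.06 (log2), beside 51.96% positive and a median of 0.005 over all genes tested. The groups did not overlap for 1 member, Mt2, and for 4.27% of all genes tested, 1.86% with NPC1-deficient libraries higher and 2.41% with them lower. Npc1 itself, which checks the titles, stood at 707 to 857 normalized reads among wildtype and 66.1 to 140 among NPC1-deficient libraries (log2 fold change -3.25, limma adjusted p = 3.23e-05).

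The half-width of the 95% interval of the log2 fold change ran from 0.12 for Gpx4 and Txnrd1 to 0.36 for Mt1. In fold terms the interval was 0.928 to 1.09 for Gpx4, 0.925 to 1.099 for Gclm, 0.845 to 1.02 for Gclc, 0.996 to 1.17 for Txnrd1 and 0.902 to 1.18 for Srxn1. For the less abundant members it was 0.862 to 1.29 for Nqo1, 0.872 to 1.28 for Slc7a11, 0.653 to 1.06 for Hmox1, 0.891 to 1.47 for Mt1 and 1.03 to 1.62 for Mt2. The widest upper bound was that of Mt2 and the lowest lower bound that of Hmox1.

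**Figure D2:**
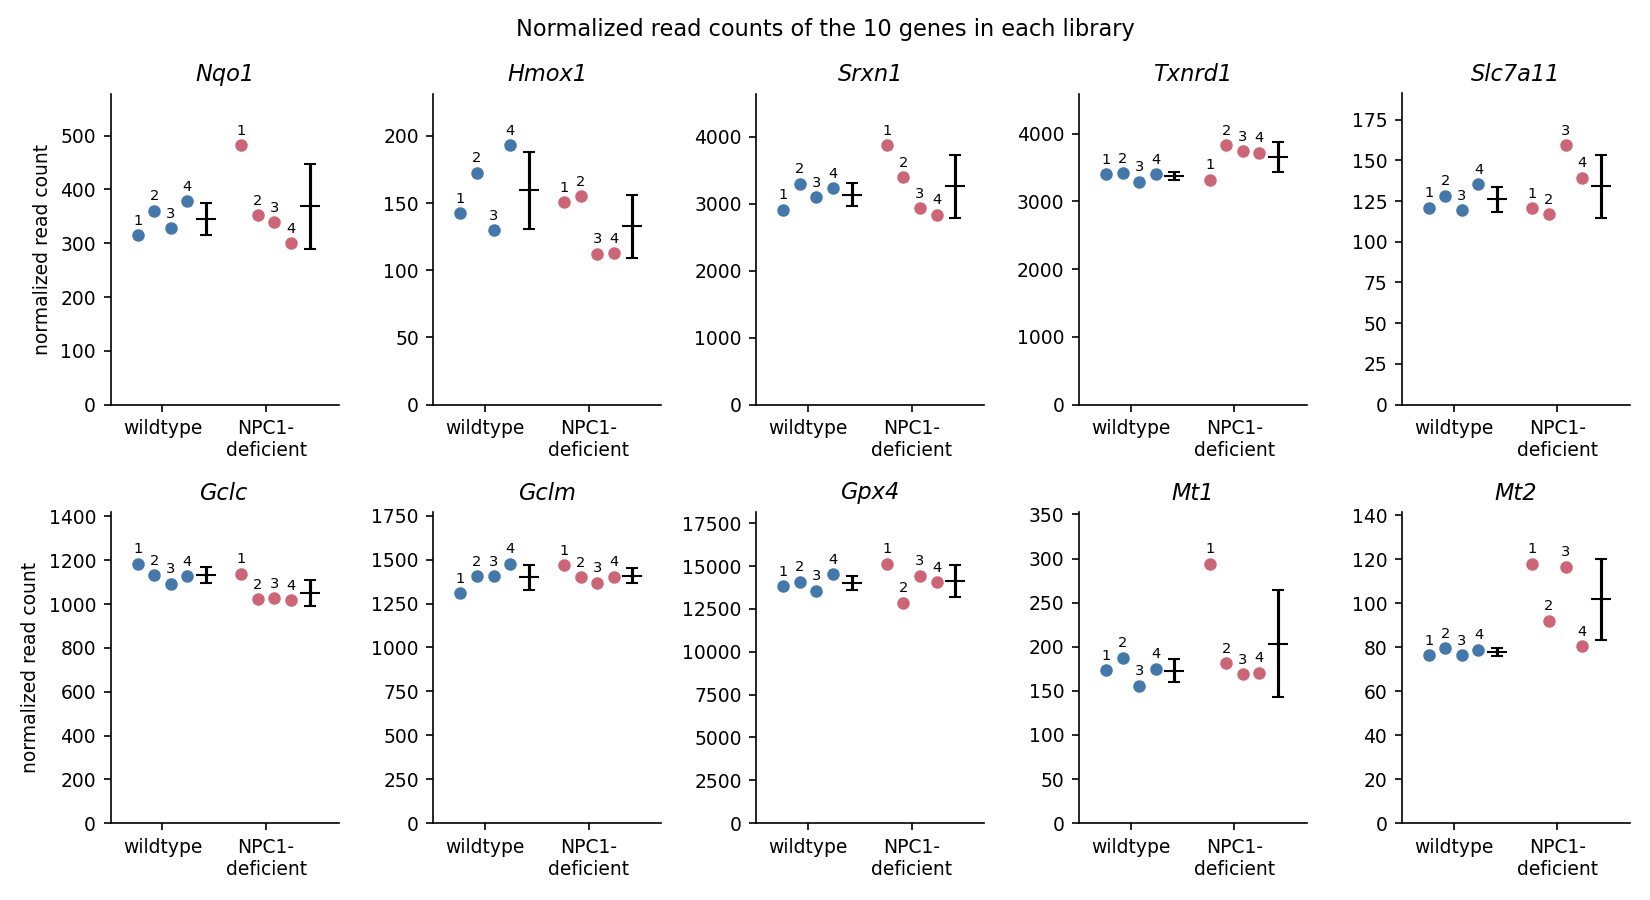
Normalized read counts of the 10 genes in each library, on axes that start at 0, with the library number over each point and the mean and SD (n = 4) at the right of each group. Only Mt2 has groups that do not overlap, 76.4 to 79.7 among wildtype and 80.5 to 118 among NPC1-deficient libraries.

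Among the NRF2 target enzymes, Nqo1 (chr8:107388225-107403206, minus strand on mm10) encodes the quinone reductase most used as a readout of NRF2. Its normalized reads were 315, 360, 328 and 379 across wildtype 1 to 4, against 482, 352, 339 and 300 across NPC1-deficient 1 to 4. NPC1-deficient 1 was the highest of the 8 libraries and NPC1-deficient 4 the lowest, and the groups overlapped. The means were 345 ± 29.3 and 368 ± 78.8 (SD, n = 4), a log2 fold change of 0.07 (SE 0.13, limma adjusted p = 0.995), and without NPC1-deficient 1 it was -0.06.

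Srxn1 (chr2:152105516-152111376, plus strand) encodes sulfiredoxin, which restores over-oxidised peroxiredoxins. It had 2911, 3300, 3098 and 3231 normalized reads across wildtype 1 to 4, against 3871, 3392, 2936 and 2833 across NPC1-deficient 1 to 4. NPC1-deficient 1 and 2 lay above every wildtype library, whereas NPC1-deficient 4 was below all of them. Limma gave a log2 fold change of 0.05 with an SE of 0.09 (adjusted p = 0.995) and -0.04 without NPC1-deficient 1.

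Txnrd1 (chr10:82833951-82897712, plus strand) encodes cytosolic thioredoxin reductase, a selenoprotein. Wildtype 1 to 4 had 3398, 3413, 3291 and 3397 normalized reads, and NPC1-deficient 1 to 4 had 3321, 3827, 3745 and 3719. NPC1-deficient 2, 3 and 4 lay above all wildtype libraries and NPC1-deficient 1 among them. Limma gave a log2 fold change of 0.11 with an SE of 0.05 (adjusted p = 0.761), and without NPC1-deficient 1 it was 0.16 (limma adjusted p = 0.253).

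Hmox1 (chr8:75093621-75100589, plus strand) encodes heme oxygenase, which splits heme into biliverdin, iron and carbon monoxide and which macrophages make in quantity. It had 142, 173, 130 and 193 normalized reads across wildtype 1 to 4, against 151, 155, 112 and 113 across NPC1-deficient 1 to 4. The groups overlapped, with NPC1-deficient 3 and 4 the lowest of the 8. The means were 159 ± 28.7 and 133 ± 23.4 (SD, n = 4) and limma put the log2 fold change at -0.26 with an SE of 0.16 (adjusted p = 0.899). Libraries 1 and 2 alone gave -0.04, and libraries 3 and 4 alone gave -0.49.

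For markers of microglia, the resident macrophages of the retina, the fold changes of all 13 on the list were negative (median -1.47), and none passed over all genes tested (unadjusted p under 0.05 for 13). Their summed level was 2497, 8226, 6919 and 12822 normalized reads across wildtype 1 to 4, against 2905, 2573, 2599 and 1373 across NPC1-deficient 1 to 4. Wildtype 2, 3 and 4 lay above every NPC1-deficient library and wildtype 1 among them. Of 5 markers of perivascular macrophages, Mrc1, Cd163, F13a1 and Pf4 averaged 4.06, 1.14, 6.97 and 0.647 normalized reads, below the filter. The other marker, Lyve1, averaged 48.04 and ranged from 31.6 to 66.04 over the 8 libraries (log2 fold change -0.26, limma adjusted p = 0.994). The part of these cells in the Hmox1 values was not tested, and in bulk libraries fewer cells of a type and less RNA per cell cannot be told apart.

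Among the glutathione genes, Slc7a11 (chr3:49892526-50443614, minus strand) encodes the cystine-glutamate exchanger that brings in the sulfur for glutathione. It had 121, 128, 119 and 135 normalized reads across wildtype 1 to 4, against 121, 117, 159 and 139 across NPC1-deficient 1 to 4. NPC1-deficient 3 and 4 were the highest of the 8 and NPC1-deficient 2 the lowest, for a log2 fold change of 0.08 (SE 0.13, limma adjusted p = 0.995).

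Gclc and Gclm encode the catalytic and modifier subunits of glutamate-cysteine ligase, the rate-limiting enzyme of glutathione synthesis. Gclc (chr9:77754535-77794485, plus strand) had 1183, 1130, 1092 and 1127 normalized reads across wildtype 1 to 4, against 1139, 1022, 1027 and 1016 across NPC1-deficient 1 to 4. NPC1-deficient 2, 3 and 4 lay below every wildtype library and NPC1-deficient 1 among them. Limma gave a log2 fold change of Gclc of -0.11 with an SE of 0.06 (adjusted p = 0.869) and -0.15 without NPC1-deficient 1 (limma adjusted p = 0.501).

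Gclm (chr3:122245557-122270732, plus strand) had 1307, 1406, 1407 and 1476 normalized reads across wildtype 1 to 4, against 1466, 1400, 1368 and 1402 across NPC1-deficient 1 to 4. Every NPC1-deficient library lay within the wildtype range, and limma put the log2 fold change at 0.01 with an SE of 0.06 (adjusted p = 0.995). A GENCODE gene on the opposite strand, Gm17494, covers 4.71% of the Gclm exons.

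The ratio of Gclc to Gclm within a library does not depend on the library's scaling. It was 0.905, 0.804, 0.776 and 0.764 across wildtype 1 to 4, against 0.777, 0.730, 0.751 and 0.725 across NPC1-deficient 1 to 4. Wildtype 1 was the highest, and wildtype 3 and 4 lay close to NPC1-deficient 1. The mean log2 ratio differed by -0.12 (exact two-sided permutation test, p = 0.0857, n = 4 against 4), where 0.0286 is the smallest p that 70 assignments allow. Across the 8 libraries no correlation between the levels of the subunits was found (Pearson r = -0.03, exact permutation p = 0.95; Spearman rho = 0.12, p = 0.793). So few libraries cannot show that there is none. Adjusted over the 2 such relations examined, the values were 0.95 and 0.793. Without NPC1-deficient 2 and 4, the libraries farthest from the median of Gclc, r was -0.06.

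Gpx4 (chr10:80047166-80056439, plus strand), the peroxidase whose loss leads to ferroptosis, had 13831, 14095, 13561 and 14511 normalized reads in wildtype 1 to 4. NPC1-deficient 1 to 4 had 15128, 12864, 14445 and 14062, which put both the highest and the lowest of the 8 libraries in that group. Limma gave a log2 fold change of 0.01 with an SE of 0.05 (adjusted p = 0.995), and with quantile scaling it was -0.02. With 12134 to 16671 reads per library, counting error was 0.841% of the mean, well below the spread between libraries of 2.89% in wildtype and 6.72% in NPC1-deficient.

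Mt2 (chr8:94172664-94173568, plus strand) had the largest fold change of the 10. Its normalized reads were 76.4, 79.7, 76.4 and 78.9 across wildtype 1 to 4, against 118, 92.1, 117 and 80.5 across NPC1-deficient 1 to 4. NPC1-deficient 1 and 3 were well above the others, NPC1-deficient 4 exceeded the highest wildtype library by less than 1 normalized read, and the groups did not overlap. The means were 77.9 ± 1.72 and 102 ± 18.5 (SD, n = 4). In limma this was a log2 fold change of 0.36 (SE 0.15, unadjusted p = 0.0321, adjusted p = 0.623), with 4 of 4 NPC1-deficient libraries higher. Over the alternatives the log2 fold change ran from 0.28 to 0.47 and the adjusted p from 0.418 to 0.956.

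These Mt2 values rest on 67 to 130 reads per library. The wildtype spread of 2.21% is narrower than the 10.5% that counting error alone gives at the mean read number. The exact Poisson 95% interval was 63.3 to 97.3 normalized reads for wildtype 4 and 63.7 to 100.5 for NPC1-deficient 4, so these libraries were not distinguishable at this depth. The intervals of NPC1-deficient 1, 98.6 to 140, and NPC1-deficient 3, 95.6 to 141, began near the upper ends of the wildtype intervals, which lay at 94.9 to 99.4. Intervals cover counting error only. A GENCODE M21 gene on the opposite strand, Gm45774, covers 73.5% of the Mt2 exons. The library kit is taken as one that does not mark strand, so reads of the pair cannot be told apart. No annotation release is named in the labels, so it is not known whether reads in the shared bases were counted for Mt2.

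Mt1 (chr8:94179082-94180327, plus strand) had 173, 188, 156 and 175 normalized reads across wildtype 1 to 4, against 294, 181, 169 and 170 across NPC1-deficient 1 to 4. NPC1-deficient 1 stood alone above the others, with a Poisson interval of 263 to 328, and the other 3 lay within the wildtype range. Limma gave a log2 fold change of 0.20 with an SE of 0.17 (adjusted p = 0.967), and without NPC1-deficient 1 it was 0.01.

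The ratio of Mt1 to Mt2 was 2.27, 2.35, 2.04 and 2.22 across wildtype 1 to 4, against 2.49, 1.97, 1.45 and 2.12 across NPC1-deficient 1 to 4. NPC1-deficient 3, in which Mt2 but not Mt1 was high, had the lowest ratio and NPC1-deficient 1 the highest. The mean log2 ratio differed by -0.17 (exact two-sided permutation test, p = 0.429, n = 4 against 4). Across the 8 libraries Pearson r between the genes was 0.62 (exact permutation p = 0.107, adjusted over 2 relations 0.213) and Spearman rho was 0.38 (p = 0.36, adjusted 0.72). Without NPC1-deficient 1 and wildtype 3, the libraries farthest from the median of Mt1, r was -0.34 (exact permutation p = 0.489, n = 6). Leaving out the extremes of Mt1 narrows its range, so this value cannot show what the positive r rested on. As deviations from the group means, r over all 8 libraries was 0.54.

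Mt3 had 2578 to 3184 normalized reads among wildtype and 2760 to 3509 among NPC1-deficient libraries, with NPC1-deficient 1 again the highest (log2 fold change 0.06, SE 0.09, limma adjusted p = 0.995). Glial cells are a known source of Mt1 and Mt2. Of 4 astrocyte markers 3 passed the filter, with Aldh1l1 averaging 119.8, S100b 63.8 and Pax2 46.9 normalized reads, while Gfap averaged 4.70. Of 7 markers of Müller glia 6 passed, among them Dkk3 at 8200.3, Glul at 7527, Rlbp1 at 621 and Slc1a3 at 195 normalized reads, while Aqp4 averaged 8.02. Fold changes were negative for 5 of these 6, and 3 were below an unadjusted 0.05 in limma, Slc1a3 (-0.81, adjusted p = 0.143), Rlbp1 (-0.46, 0.477) and Glul (-0.11, 0.62). The astrocyte list summed to 224 to 244 normalized reads in wildtype libraries and to 211 to 271 in those lacking NPC1, with NPC1-deficient 1 the highest. For the list of Müller glia, in which Dkk3 and Glul hold most of the reads, the sums were 16549 to 17547 against 15711 to 16594. Their part in the metallothionein values was not tested.

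**Figure D3:**
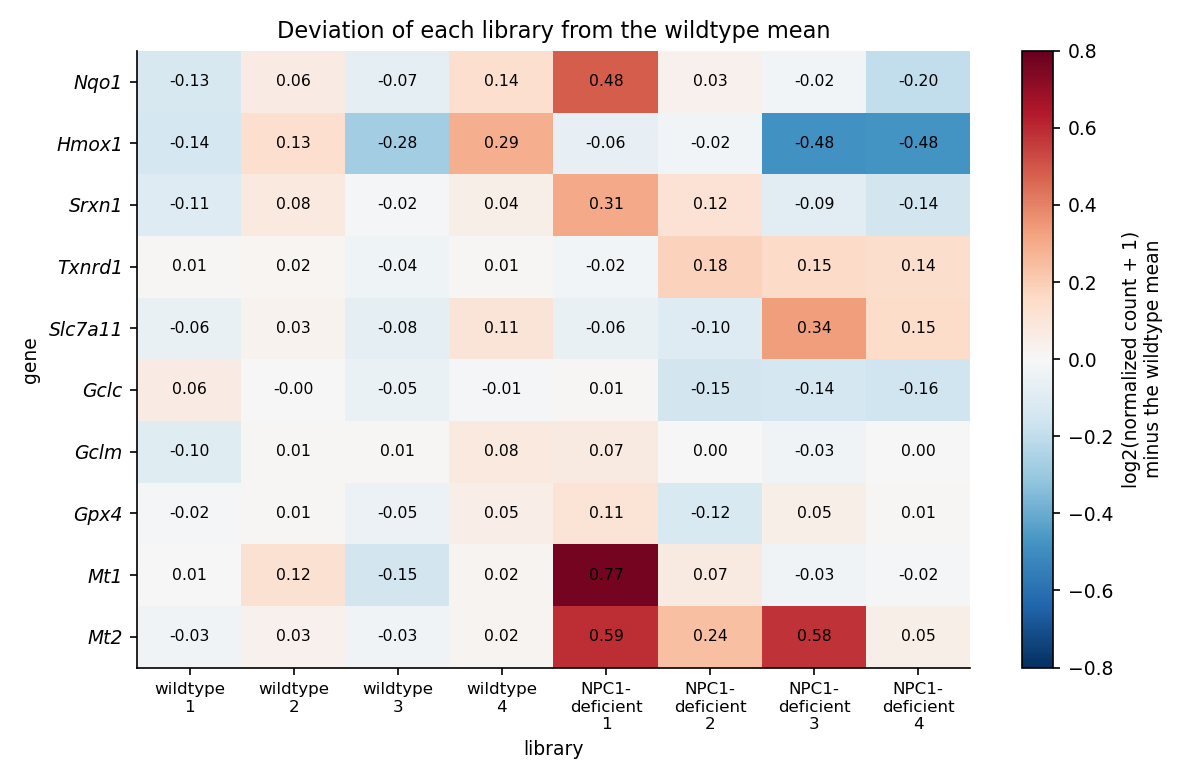
Each cell gives log2(normalized count + 1) of a gene in a library minus the wildtype mean of that gene (rows, 10 genes; columns, 8 libraries; red above and blue below). The NPC1-deficient 1 column holds the largest value, for Mt1, and the Hmox1 row is lowest in NPC1-deficient 3 and 4.

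The coefficient of variation was larger in NPC1-deficient libraries for 8 of the 10 genes, beside 57.1% of all genes tested. NPC1-deficient 1 was the highest of the 8 libraries for 5 members, Nqo1, Srxn1, Gpx4, Mt1 and Mt2, and the lowest for none. Over all genes tested it was the highest for 14.3% and the lowest for 14.3%. The median deviation of the 10 genes from the wildtype mean was 0.09 on the log2 scale in that library and lay between -0.05 and 0.05 in the other 7. NPC1-deficient 1 also had the most Npc1 reads of its group, 140 against 66.1 to 70.05 in the other 3. Its summed level of ganglion cell markers was the largest, 296736 against 255612 to 270974 in the other 7 libraries. Among pericyte and fibroblast markers, Col1a2 had 75.3 normalized reads in NPC1-deficient 1 and 0 to 5.45 in the other 7. Col1a1 had 29.9 against 0 to 4.13, whereas Pdgfrb and Rgs5 were highest in NPC1-deficient 2. That list summed to 509 in NPC1-deficient 1, 508 in NPC1-deficient 2 and 256 to 422 in the other libraries. The part of these cells in the Mt1 values was not tested.

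Library pairs gave different signs for several members. Because the strain field separates libraries 1 and 2 from libraries 3 and 4, the 2 library sets were compared. The fold changes within libraries 1 and 2 and within libraries 3 and 4 had opposite signs for 5 of the 10 genes, Nqo1, Srxn1, Slc7a11, Gclm and Gpx4. For Srxn1 they were 0.23 and -0.13, for Nqo1 0.29 and -0.14, and for Slc7a11 -0.07 and 0.23. For Gpx4 they were both near 0, at -0.0012 and 0.02. Over all 8 libraries the log2 fold changes of these 5 genes were only 0.01 to 0.08. No share over all genes was computed for this count, so it is not read as a trait of these genes.

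The difference between the sets was tested as an interaction over all genes, in which 12 genes passed, or 0.078% of those tested. None of the 10 did (limma adjusted p from 0.224 to 0.962). Srxn1 had the smallest p, with an interaction of -0.36 (SE 0.11, unadjusted p = 0.00772 and limma adjusted p = 0.224), and was the 1 member below an unadjusted 0.05, as were 13.4% of all genes tested. Fitted alone, Srxn1 had a limma adjusted p of 0.425 in libraries 1 and 2 and of 0.347 in libraries 3 and 4. For Txnrd1, Gclc, Hmox1, Mt1 and Mt2 both sets gave the same sign.

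**Figure D4:**
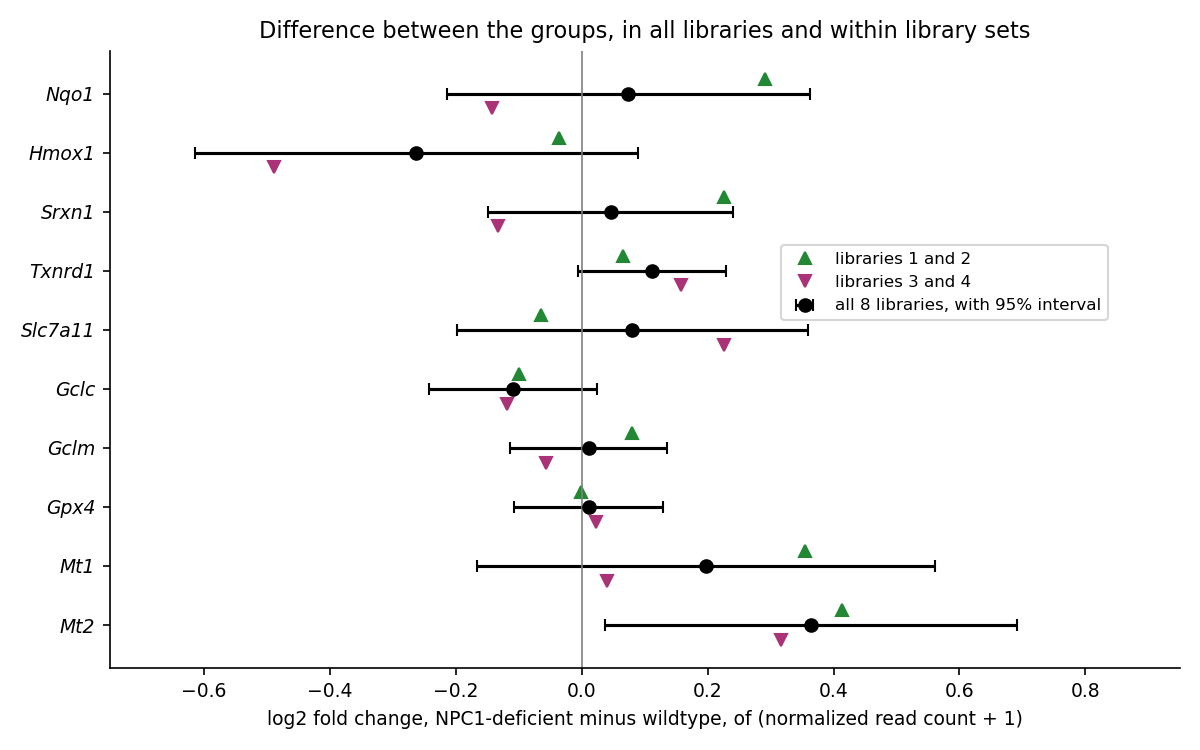
Log2 fold changes, NPC1-deficient minus wildtype, of the 10 genes with the 95% limma interval (black, 8 libraries), and the values within libraries 1 and 2 (upward triangles) and libraries 3 and 4 (downward triangles). Only the Mt2 interval, 0.04 to 0.69, leaves out 0 before adjustment, and the triangles lie on opposite sides of 0 for 5 genes.

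The surrounding pathway genes were taken as 11 lists of 130 genes. Of the 125 tested none passed over all genes (0 rose and 0 fell), 79 lay above 0 and 46 below (median 0.02), and 9 were below an unadjusted 0.05, which is close to the 6.76% of all genes tested. On recovered reads DESeq2 called 2 of them and edgeR none. Among the 3 genes of each list with the smallest p, the groups did not overlap for Tfrc, Cat, Slc39a13 and Acsl4, with NPC1-deficient libraries higher. They also did not for Gsta4, Sepsecs, Nr3c1 and Trib3, with NPC1-deficient libraries lower. Over all genes tested this held for 4.27%. These genes were picked by p, so they are not read against that share.

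Fold changes of the 10 regulators of NRF2 were positive for 3 and negative for 7 (median -0.03). Maff, a small MAF partner of NRF2 that is also rapidly induced, had 129 to 194 normalized reads among wildtype and 101 to 129 among NPC1-deficient libraries (log2 fold change -0.37, limma adjusted p = 0.613). Bach1, the repressor that competes at antioxidant response elements and restrains Hmox1, was at -0.17, and Sqstm1, which binds KEAP1, at -0.06. Of 13 further NRF2 targets 9 were positive and the median was 0.03. Ugdh, which makes UDP-glucuronate, was at 0.32 (limma adjusted p = 0.458), the glutathione transferase gene Gsta4 at -0.38 and Pgd, of the pentose phosphate pathway, at 0.07.

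The 19 other glutathione genes had a median of 0.04, with 13 positive. Gpx3, an extracellular peroxidase, was at 0.18 (limma adjusted p = 0.634), Gpx7 at 0.13 and Ggt1 at -0.46 from 17.2 normalized reads. The 12 thioredoxin and peroxiredoxin genes spread least around 0, from -0.03 to 0.06 apart from Txnip, an inhibitor of thioredoxin, at 0.23. In that list Prdx2 was at 0.06 and Prdx3 at 0.04. The 5 genes that remove superoxide and hydrogen peroxide had a median of 0.03, with catalase (Cat) at 0.07, Sod3 at 0.39 from 16.9 normalized reads and the copper chaperone Ccs at -0.08. Of 6 genes for making selenoproteins, the class to which Txnrd1 and Gpx4 belong, 3 were positive. Sepsecs, at -0.16, and Trnau1ap, at 0.15, had the smallest p values, followed by Eefsec at 0.08.

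Heme and iron genes held the smallest p of the 11 lists. Tfrc, the transferrin receptor, had 1526, 1274, 1411 and 1174 normalized reads across wildtype 1 to 4, against 1790, 1749, 1656 and 1669 across NPC1-deficient 1 to 4. Every NPC1-deficient library lay above every wildtype library, as for 1.86% of all genes tested. Limma gave a log2 fold change of 0.36 with an SE of 0.08 (adjusted p = 0.102), and it passed in 4 alternatives, with the library set as a term (0.048), without wildtype 1 (0.0197), without wildtype 1 and NPC1-deficient 1 together (0.0429) and with DESeq2 (0.00572). In this order 99, 144, 170 and 246 genes passed in all under these alternatives, against 16 in the main limma test. The iron exporter Slc40a1 was at -0.76 from 35.4 normalized reads, and ceruloplasmin (Cp) at -0.57, with 168 in wildtype 1 and 51.03 to 73.7 in the other 7 libraries. The list's median was 0.03.

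The list of 22 zinc and copper genes tested had 17 positive fold changes and a median of 0.06, with the zinc importers Slc39a13 at 0.12 and Slc39a14 at 0.26 and the vesicular zinc transporter Slc30a3 at -0.46. In the list of lipid peroxidation, 7 of 9 were tested and 5 were positive. Acsl4, which supplies the polyunsaturated lipids that Gpx4 protects, had 6020 to 6681 normalized reads among wildtype and 6792 to 7321 among NPC1-deficient libraries. Its groups did not overlap, as for 1.86% of all genes tested in that direction (log2 fold change 0.18, SE 0.05, limma adjusted p = 0.218). Ptgs2 was at -0.74 and Alox5 at -0.66, both from low levels of 25.8 and 13.1 normalized reads.

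Of 8 tested glucocorticoid response genes, examined because glucocorticoids induce Mt1 and Mt2, 3 were positive and the median was -0.10. The receptor gene Nr3c1 had 61.9 to 100.3 normalized reads among wildtype and 37.2 to 47.97 among NPC1-deficient libraries. Its groups did not overlap, as for 2.41% of all genes tested in that direction (log2 fold change -0.78, SE 0.18, limma adjusted p = 0.12). DESeq2 called Nr3c1 (adjusted p = 0.0338), as it did 246 genes in all. Errfi1 was at -0.17 and Sgk1 at -0.33. Within libraries 3 and 4 alone Sgk1 (log2 fold change -0.55) and Klf9 (-0.81) passed (limma adjusted p of 0.0374 and 0.00217). In that subset 335 genes passed in all. The 8 targets of ATF4, which also controls Slc7a11, had a median of -0.04, with Trib3 at -0.24, Asns at 0.08 and Ddit3 at -0.10.

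**Figure D5:**
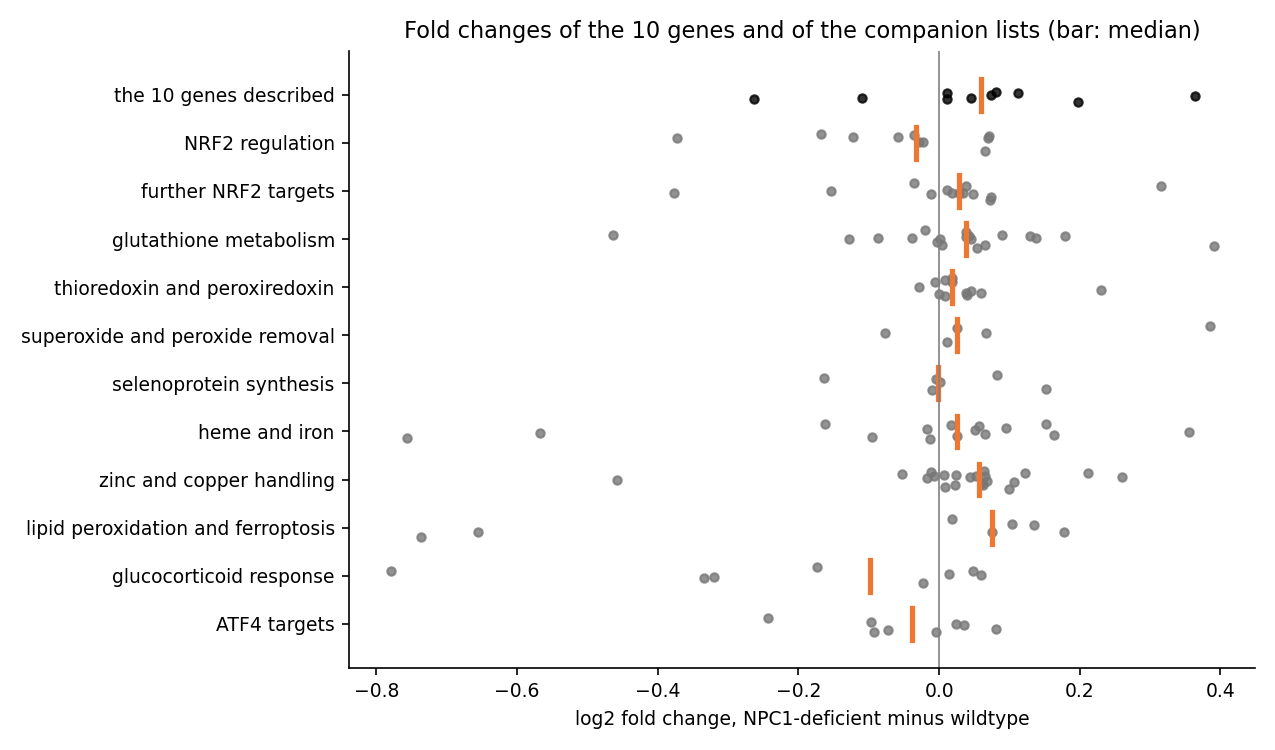
Log2 fold changes, NPC1-deficient minus wildtype, with 1 point per tested gene for the 10 genes described and for 11 lists of related genes; the orange bar is the median of each list. List medians lie between -0.10 (glucocorticoid response) and 0.08 (lipid peroxidation and ferroptosis), beside 0.06 for the 10 genes.

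Genes with the most similar pattern over the 8 libraries were found by Pearson r of log2(normalized count + 1) among all genes tested, and are given as a description, since the highest r among so many genes over 8 libraries is large in any case. For Nqo1 these were Stard10 (r = 0.993), Cops7a (0.980) and Yipf3 (0.976), for Srxn1 Chrna6 (0.981), Hcrtr1 (0.979) and Glrb (0.977), and for Hmox1 Hrh1 (0.968), Kiss1r (0.966) and Spsb1 (0.958). Txnrd1 was nearest to Slc6a4 (0.984), Hn1l (0.957) and March8 (0.952). Slc7a11 was nearest to Dnajc25 (0.992), Kdelr2 (0.983) and Ostc (0.977), and Gpx4 to Arpc5l (0.979), Glrx2 (0.972) and Rsl1 (0.967). For Gclc the genes were Ezr (0.972), Tsr2 (0.970) and Mylip (0.968), and for Gclm Cux2 (0.965), Hdhd3 (0.954) and Blvrb (0.954). Mt1 was nearest to Prg2 (0.965), Anxa7 (0.959) and Nxph1 (0.951), and Mt2 to Fads3 (0.940), Ppapdc1b (0.939) and Slc39a5 (0.925). No member was among the 3 nearest of another.

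Facts of the libraries bear on these values in a few ways. The shallowest library, wildtype 1, held 33030175 reads and the deepest, wildtype 4, 44050118, and mitochondrial genes took 9.04% to 12.7%. All 11 ganglion cell markers passed the filter, averaging from 55.01 (Nefh) to 69529 (Sncg) normalized reads, with a median log2 fold change of 0.06. Rod, amacrine and bipolar markers all had negative fold changes (8 of 8, 6 of 6 and 5 of 5), with medians of -1.03, -1.54 and -0.51 and none passing over all genes tested. Among NPC1-deficient libraries their summed levels were 1411 to 1970 for rods, against 2424 to 5992 in wildtype, and 1401 to 2090 for amacrine cells, against 2437 to 4647. For bipolar cells the sums overlapped, at 2040 to 2176 against 2132 to 3356. Within the amacrine list Gad2 was at -0.13 and Slc6a9 at -0.15. The part of these cells in the values of the 10 genes was not tested.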

How the data were processed

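The deposited values are a signal: reads per gene scaled by 1 factor for each library, as the numbers themselves show, since all 199536 (100%) are whole multiples of the smallest value of their library within 1e-06 of a read. CASAVA 1.8.2, HTSeq 0.5.4p3, DESeq2 1.0.19 and mm10 are named, without roles, in the submitters' processing notes. No aligner or annotation release is named in the labels. Per the labels' protocols the kit was TruSeq, taken here as the form that does not mark strand.

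Groups follow titles and descriptions. A mean of 10 or more normalized reads was required (15386 genes kept, 9556 removed), and tests ran on log2(value + 1) in limma 3.58.1 (R 4.3.3) using a variance trend, no covariate and Benjamini-Hochberg adjustment over all genes tested. Fold changes of low genes are understated on this scale. Ratios and correlations used exact permutation tests (scipy 1.17.1). On recovered reads, edgeR 4.0.16 (16 genes called) and DESeq2 1.42.0 (246) were alternatives, beside other pseudocounts, filters, scalings, blocks and subsets of libraries. A normalized 0 allows 3 reads, or 2.69 to 3.42 normalized reads. Tested on simulated data for this comparison (15386 genes, 50 changed per size), log2 changes of 0.35, 0.5, 1 and 2 were found by limma in 16%, 50%, 80% and 98% of cases. Of 129 calls 7 were false. The data themselves gave 16 limma calls, so the adjusted threshold was looser in the simulation and these shares can overstate recovery in the data. The simulation also held no difference between library sets. Positions and exon lengths are from GENCODE M21 on the mm10 build, which held 24471 of 24942 identifiers (98.1%). The members, lists and tests were chosen with earlier results of these data known. The named genes are all members, Npc1, the 3 genes of each list with the smallest p, the 3 genes most like each member, and markers. Mt3, as comparison, and Klf9, for its call, were named after their values were seen.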

Additional observations from a re-analysis of the deposited data

Results flagged for a closer look

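Of 94 groups of 4 libraries examined, 11 had a library far from the other 3 by Dixon's test at 95%, where chance gives about 1 in 20. The groups include companion genes picked for a small p and come from the same 8 libraries, so they are not independent. NPC1-deficient 1 was the distant library in 7 of the 11. No share over all genes is given for these counts, so they are not read as a trait of these genes. It was high for Mt1 (294 normalized reads, the next 181), Gclc (1139, the next 1027), Npc1 (140, the next 70.05), Mt3 (3509, the next 2862), Sqstm1 (17353, the next 15596) and Alox5 (14.5, the next 6.54), and low for Sgk1 (557, the next 624). Wildtype 1 was high for Cp (168, the next 73.7), Slc30a3 (71.8, the next 37.3) and Trib3 (91.2, the next 74.7). Wildtype 3 was low for Txnrd1 (3291, the next 3397).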

How the results depend on the processing

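No member passed under any of 22 alternatives, edgeR and DESeq2 included, and 202 of 220 member values kept their sign. Hmox1, Gclc, Txnrd1, Mt1 and Mt2 kept it in all. Within libraries 3 and 4 alone Nqo1 was -0.14, Gclm -0.057 and Srxn1 -0.13. Without wildtype 1 and NPC1-deficient 1 together Nqo1 was -0.11, Gclm -0.040, Srxn1 -0.076 and Gpx4 -0.029. Within libraries 1 and 2 alone Slc7a11 was -0.066 and Gpx4 -0.0012, and with quantile scaling Gpx4 was -0.017. Leaving out single libraries gave -0.063 to 0.16 for Nqo1, -0.021 to 0.038 for Gclm, -0.041 to 0.11 for Srxn1, -0.0049 to 0.14 for Slc7a11, -0.023 to 0.055 for Gpx4 and 0.0073 to 0.27 for Mt1. The count of genes past the threshold was 16, and 10 with a minimum of 50, 34 with the replicate block, 99 with the library set as a term, 57 within libraries 1 and 2, 335 within libraries 3 and 4, 170 without wildtype 1 and NPC1-deficient 1, 246 with DESeq2 and 2 to 144 without single libraries (144, 4, 5 and 35 without wildtype 1 to 4, and 26, 4, 2 and 33 without NPC1-deficient 1 to 4). Companion genes past the threshold numbered 0, and 1 with the library set as a term, 2 within libraries 3 and 4, 1 without wildtype 1 and NPC1-deficient 1, 2 with DESeq2 and 0 to 1 without single libraries. The interaction count of 12 became 0 with no filter and 42 with robust moderation. The causes were not tested. Leaving out single libraries moved the Mt1 to Mt2 difference between -0.28 and -0.02 and the Gclc to Gclm difference between -0.15 and -0.07. Same-numbered libraries did not deviate together (r from -0.07 to -0.02, none closest to its own number), so the replicate block pairs by number only; under it the ratio differences stayed at -0.17 and -0.12, and no member passed. Mt2 rests on 67 to 130 reads per library, and its counting error of 10.5% exceeds the wildtype spread of 2.21% but not the NPC1-deficient spread of 18.2%.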
